A study of Mus musculus with 6 samples.

Results

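The transcripts described here encode the heat shock proteins and cytosolic chaperones, with their mitochondrial relatives, in mouse intestine. A list of 47 gene symbols defined them, and all 47 were found among the 25416 rows of the expression table. Intestine tissue of mice labelled HET for the S254D change of Rnf111, a ubiquitin ligase, gave 3 RNA-seq libraries, and tissue labelled WT gave another 3. Strain, age, sex, treatment and the segment of the intestine are not given in the labels, nor whether each library came from its own animal; the p-values therefore reflect library-to-library spread, some of which can be technical. Each level is FPKM, a fragment count divided by gene length and by sequencing depth, as the authors deposited it. The comparison asks which of these transcripts differed between HET and WT.

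Chaperones bind unfolded proteins and help them to fold, to be repaired or to be degraded. Hsp70 proteins take up clients that J-domain proteins (Hsp40) deliver, exchange factors such as Hsp110 and the Bag proteins release them, and Hsp90 with its co-chaperones matures kinases and steroid receptors. The transcription factor Hsf1 switches on the inducible members under stress by binding heat shock elements, alternating repeats of the short unit GAA and its complement TTC. The members are given by role as HSF1-type inducible (14 genes), constitutive cytosolic (15), mitochondrial (4), small heat shock proteins (4), the cytosolic chaperonin CCT (7) and the heat shock factors with the binding protein Hsbp1 (3). Placing a gene in the inducible group rests on background knowledge, not on these libraries.

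Promoter sequences are shown because heat shock elements are the known route to the inducible members, and because members that rose and members that fell both held them. Windows from 250 bases before to 50 bases after an annotated start site, taken from RefSeq on GRCm38.p6, were matched for 39 of the 47 members (51 windows). A 2-unit element was searched as GAANNTTC or TTCNNGAA, each its own reverse complement. A 3-unit element was GAANNTTC followed by NNGAA, or its reverse complement, TTCNNGAA followed by NNTTC, and every 3-unit match also holds 2-unit matches. Capitals in the 150 bases before the start site mark 2-unit matches. Hsph1 lies at chr5:149636337-149636486 (- strand), Hspa1b at chr17:34959239-34959388 (- strand), Dnaja1 at chr4:40722318-40722467 (+ strand), Hspe1 at chr1:55087998-55088147 (+ strand), Hspb1 at chr5:135887769-135887918 (+ strand) and Hspb6 at chr7:30553151-30553300 (+ strand), each read 5′ to 3′ towards its gene:
Hsph1: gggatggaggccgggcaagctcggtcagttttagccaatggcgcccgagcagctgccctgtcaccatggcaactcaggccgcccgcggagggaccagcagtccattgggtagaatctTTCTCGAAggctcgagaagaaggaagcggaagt
Hspa1b: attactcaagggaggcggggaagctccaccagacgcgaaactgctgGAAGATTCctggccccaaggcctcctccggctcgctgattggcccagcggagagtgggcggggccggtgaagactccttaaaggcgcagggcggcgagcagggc
Dnaja1: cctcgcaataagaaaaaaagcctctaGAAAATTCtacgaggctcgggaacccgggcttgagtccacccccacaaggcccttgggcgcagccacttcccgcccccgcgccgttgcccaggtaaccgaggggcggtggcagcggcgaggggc
Hspe1: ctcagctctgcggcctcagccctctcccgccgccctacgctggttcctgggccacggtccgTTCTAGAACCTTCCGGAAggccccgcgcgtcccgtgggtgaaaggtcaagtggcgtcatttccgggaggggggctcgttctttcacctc
Hspb1: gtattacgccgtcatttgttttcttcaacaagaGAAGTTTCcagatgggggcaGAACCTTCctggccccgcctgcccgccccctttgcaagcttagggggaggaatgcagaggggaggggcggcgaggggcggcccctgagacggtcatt
Hspb6: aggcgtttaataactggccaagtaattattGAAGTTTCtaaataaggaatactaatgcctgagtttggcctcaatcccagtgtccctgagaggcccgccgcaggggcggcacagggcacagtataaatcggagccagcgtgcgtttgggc

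Of the first 4 of these, Hsph1, Hspa1b and Dnaja1 belong to inducible members that rose in HET, and Hspe1 to a mitochondrial member that was not called. The last 2 belong to small heat shock proteins that fell. Hspa1a and Hspa1b, the neighbouring genes of inducible Hsp70, had the same letter at 149 of these 150 positions. Hspe1 and Hspd1, which encode the lid and the barrel of the mitochondrial chaperonin, are read in opposite directions from start sites 216 bases apart. The same 18 bases between them (chr1:55088059-55088076) hold the run of alternating units printed in capitals for Hspe1. A 2-unit element was held by 19 of the 39 members (48.7%) and by 17.0% of the 27025 genes searched in the same way. For the 3-unit element the shares were 5 of 39 members (12.8%) and 0.662% of genes. The 5 were Chordc1, Dnajb6, Hspd1, Hspe1 and Hsph1. In Hsph1 the 3-unit match lay after the start site, and in Chordc1 such matches lay across or after it. A match says only that the letters are present.

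**Figure D1:**
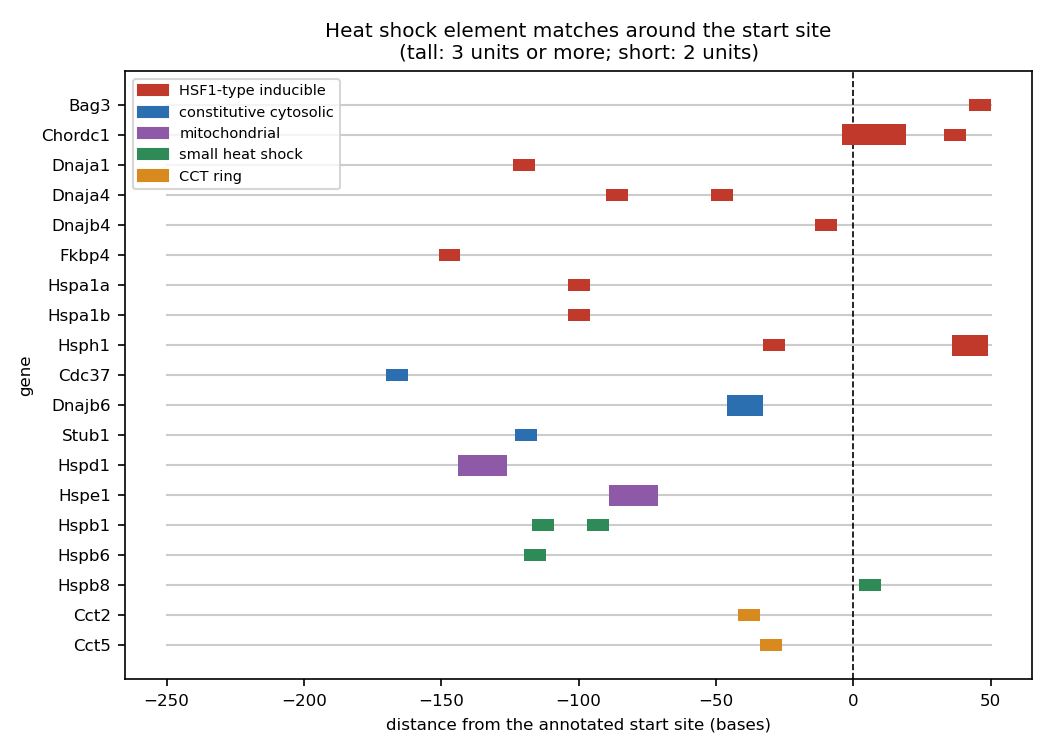
Each line is the window from 250 bases before to 50 bases after the annotated start site (dashed) of 1 of the 19 members with a match, taking the most upstream start with one. Bars mark 2-unit (short) and 3-unit or longer (tall) heat shock elements, coloured by role; the tall bars of Hspd1 and Hspe1 are the same 18 bases read from either gene.

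The limma test took genes that reached 1 FPKM in 3 or more libraries, 46 members among 11870 genes. HET exceeded WT in 18 of these members and was below it in 6, at a Benjamini-Hochberg adjusted p under 0.05 over all genes tested, while 22 were not called. Over all tested genes 10.7% were called higher and 35.7% lower, or 46.4% in either direction. The members' median log2 fold change, on the log2(FPKM + 1) scale that understates changes of weakly expressed genes, was 0.12, against -0.12 over all tested genes. In 25 of the 47 members all 3 HET values lay above all 3 WT values (16.0% of tested genes), and in 6 they lay below (43.8%). Summed over the members, FPKM was 2856, 2661 and 2515 in HET replicates 1 to 3 and 2151, 2169.98 and 2194 in the WT replicates. The members' share of all FPKM was 0.535% to 0.559% in HET libraries and 0.422% to 0.439% in WT libraries. The scaling bears on the balance: as other scalings were applied the number of members called higher went from 18 to between 24 and 27, while all 18 stayed called. The share of all tested genes called higher grew as well, from 10.7% to 14.6% with a common sum, 19.7% with median-ratio scaling and 24.7% with quantile normalization.

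**Figure D2:**
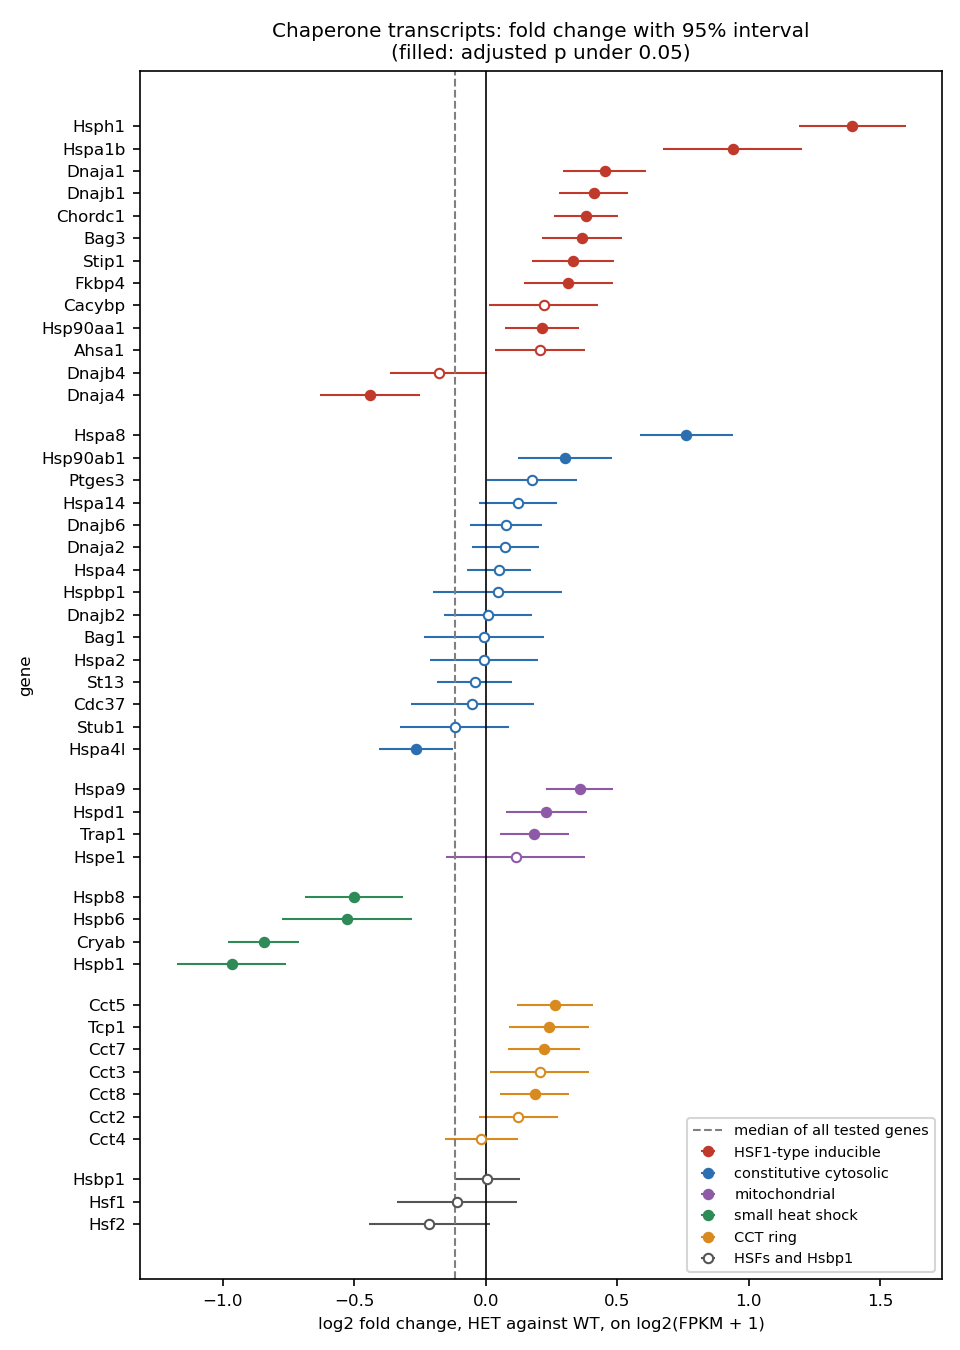
Each point is the log2 fold change of 1 of the 46 tested members, HET against WT, with its 95% confidence interval from limma; filled points passed an adjusted p under 0.05 and the dashed line is the median of all tested genes (-0.12). Hsph1 stands highest at 1.39, and the 4 small heat shock genes are at or below -0.50.

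The tissue label was checked with 10 genes of intestinal epithelium, none at 0 in any library. Their summed FPKM ran from 9997 to 11813 across HET libraries and from 8218 to 8867 across WT libraries. Fabp2 gave the largest part of these sums, with a mean of 6794 FPKM in HET and 4572 in WT. Among the 10 genes 3 were called higher (10.7% of all tested genes), 0 lower (35.7%) and 7 were not called. FPKM carry no depth of their own, and the lowest values imply roughly 2e+07 to 2.19e+07 fragments per HET library and 2e+07 to 2.63e+07 per WT library. At that depth a member's level rested on about 31 fragments (Hspa1a in HET replicate 3) to 30747 (Hspa8 in HET replicate 2). Among the HET libraries, replicate 1 held the highest value for 34 of the 47 members, and for 24 after each library was scaled to a common sum. Among the WT libraries, replicate 3 held the highest value for 23 members as deposited, and replicate 2 for 33 after that scaling. Fewer cells of a type and less RNA per cell cannot be told apart in bulk tissue.

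Inducible members rose in 9 of 13 tested cases and fell in 1, beside 10.7% and 35.7% of all tested genes. The group had a median log2 fold change of 0.33, against -0.12 over all tested genes. The strongest was Hsph1, an Hsp110 protein and nucleotide exchange factor of Hsp70. Its level was 21.0, 18.9 and 17.3 FPKM in HET replicates 1 to 3 and 6.61, 6.15 and 7.15 in the WT replicates, so the lowest HET library was above every WT library. The ratio of means was 2.87 (log2 fold change 1.39, SE 0.09, limma adjusted p = 0.000107), the 44th highest log2 fold change among the 11870 tested genes. Hspa1b, inducible Hsp70, was at 4.92, 3.52 and 3.71 FPKM in HET and 1.45, 1.73 and 1.67 in WT. These groups did not overlap either, with a 2.50-fold difference (log2 fold change 0.94, SE 0.11, adjusted p = 0.000859).

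Hspa1a encodes the same inducible Hsp70 and was the member that did not reach the filter for testing. Its FPKM was 1.35, 1.15 and 0.528 in HET and 0.818, 0.467 and 0.752 in WT, and the groups overlapped. Without the filter limma gave a log2 fold change of 0.24 (SE 0.18, adjusted p = 0.350). Of the 50-base stretches in their annotated transcripts, 58.8% of those of Hspa1a occur in Hspa1b and 62.3% of those of Hspa1b in Hspa1a, so the split of fragments between them is uncertain. Their summed FPKM was 6.26, 4.67 and 4.24 in HET and 2.27, 2.20 and 2.42 in WT, a 2.20-fold difference with no overlap.

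J-domain proteins of the inducible group went in both directions. Dnaja1 was at 62.8, 63.4 and 56.5 FPKM in HET and 42.4, 46.0 and 44.1 in WT (1.38-fold, limma adjusted p = 0.00198). Dnajb1, the best known partner of inducible Hsp70, was at 19.2, 18.4 and 17.3 in HET and 13.7, 13.5 and 13.4 in WT (1.35-fold, adjusted p = 0.00148). For both genes every HET library exceeded every WT library. Dnaja4 went the other way, at 1.07, 1.14 and 1.05 in HET and 2.07, 1.87 and 1.57 in WT (1.69-fold lower, log2 fold change -0.44, adjusted p = 0.00468). With quantile normalization that value was -0.12 and was no longer called (adjusted p = 0.335). In the GENCODE M21 annotation 44.1% of the exonic bases of Dnaja4 lie opposite exons of Wdr61, which was at 28.9 ± 1.47 FPKM in HET and 27.1 ± 1.33 in WT (SD, n = 3), and no source used here says whether reads were assigned by strand. Dnajb4 was not called.

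Of the co-chaperones in the inducible group 4 rose, by 1.25-fold to 1.36-fold. Bag3, which couples Hsp70 to small heat shock proteins and to autophagy, was at 19.0, 16.9 and 16.7 FPKM in HET and 13.03, 13.6 and 13.4 in WT (1.31-fold, limma adjusted p = 0.00405). The Hsp90 partner Chordc1 was at 7.47, 7.38 and 7.27 in HET and 5.32, 5.41 and 5.59 in WT (1.36-fold, adjusted p = 0.00144). Its libraries were even, with an SD of 0.102 in HET and 0.138 in WT. Stip1, the bridge between Hsp70 and Hsp90, was at 42.5, 39.3 and 38.5 in HET and 30.5, 30.6 and 33.7 in WT (1.27-fold, adjusted p = 0.00652). Fkbp4, an immunophilin of steroid receptor complexes, was at 137, 125 and 116 in HET and 101, 100.02 and 102 in WT (1.25-fold, adjusted p = 0.0113), the highest level of the inducible group. In these 4 genes the groups did not overlap. Ahsa1, which stimulates the ATPase of Hsp90, and Cacybp were not called although their HET values also lay above all WT values, and their adjusted p were 0.0519 and 0.0767. Both were called with each of the 3 other scalings (limma adjusted p of 0.00917 to 0.0168 for Ahsa1 and 0.0158 to 0.0209 for Cacybp), which brought the inducible members called higher to 11.

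Hsp90 comes as the inducible Hsp90aa1 and the constitutive Hsp90ab1, and both rose. Hsp90aa1 was at 72.4, 74.7 and 67.7 FPKM in HET and 61.0, 60.4 and 63.4 in WT (1.16-fold, limma adjusted p = 0.0240). Hsp90ab1 was at 328, 294 and 282 in HET and 238, 244 and 250.3 in WT (1.24-fold, adjusted p = 0.0163). Neither pair of groups overlapped, but the call of Hsp90aa1 was lost without HET replicate 2 (adjusted p = 0.0894) and without WT replicate 1, 2 or 3 (0.0833, 0.0841 and 0.0565). That of Hsp90ab1 was lost without WT replicate 1 (0.0669) or 2 (0.0534). The ratio of Hsp90aa1 to Hsp90ab1 FPKM, which a common sum or median-ratio scaling leaves as it is, was 0.221, 0.254 and 0.240 in HET and 0.256, 0.247 and 0.253 in WT (exact two-sided permutation test over 20 arrangements, p = 0.3, where 0.1 is the smallest value 3 against 3 libraries allow). The log2 difference of this ratio was -0.09, and the test does not show that the genotypes were alike in it.

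Hspa8, constitutive Hsp70 (Hsc70) and the most abundant member, was at 622, 586 and 539.9 FPKM in HET and 346, 343 and 339 in WT. All HET libraries were far above the WT libraries, with an SD of 41.0 in HET and 3.58 in WT. The difference was 1.70-fold (log2 fold change 0.76, SE 0.07, limma adjusted p = 0.000433). Hspa8 alone made up 21.5% to 22.04% of the members' total in HET libraries and 15.4% to 16.1% in WT libraries. The ratio of Hspa1a plus Hspa1b to Hspa8 was 0.0101, 0.00797 and 0.00785 in HET and 0.00655, 0.00641 and 0.00715 in WT, higher in 3 of 3 HET libraries (exact permutation p = 0.1, the smallest possible). In every library inducible Hsp70 transcripts were a small fraction of those of Hspa8. Of the 50-base stretches of the Hspa8 transcript 73.2% also occur in transcripts of other annotated genes, so part of its fragments could be placed elsewhere. Shares above 30% were also found for other members, among them Hsp90aa1 (58.5%), Hspb1 (58.9%) and Hspd1 (44.8%).

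Most other constitutive members were not called. Beside Hspa8 and Hsp90ab1, 12 of the 15 were not called, with ratios of means between 0.923 and 1.13 and adjusted p of 0.0873 to 0.964. They were the Hsp70 relatives Hspa2, Hspa4 and Hspa14, the J-domain proteins Dnaja2, Dnajb2 and Dnajb6, the exchange factors Bag1 and Hspbp1, the Hsp70-interacting protein St13, the Hsp90 co-chaperones Ptges3 (p23) and Cdc37, and Stub1, a ubiquitin ligase for chaperone clients. Their 95% intervals together reached from -0.32 to 0.35 on the log2(FPKM + 1) scale, so smaller differences are not excluded by these data. Hspa4l, an Hsp110 relative like Hsph1, was the member that fell, at 1.93, 2.10 and 2.12 FPKM in HET and 2.76, 2.57 and 2.68 in WT (1.30-fold lower, limma adjusted p = 0.0104). Its log2 fold change went from -0.27 to 0.02 with quantile normalization. The number of constitutive members called higher, 2, was 4 with a common sum, 7 with median-ratio scaling and 6 with quantile normalization. It was 1 without WT replicate 1 or WT replicate 2. The share of all tested genes called higher went from 10.7% as deposited to 14.6%, 19.7% and 24.7% with these scalings, in the same order.

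**Figure D3:**
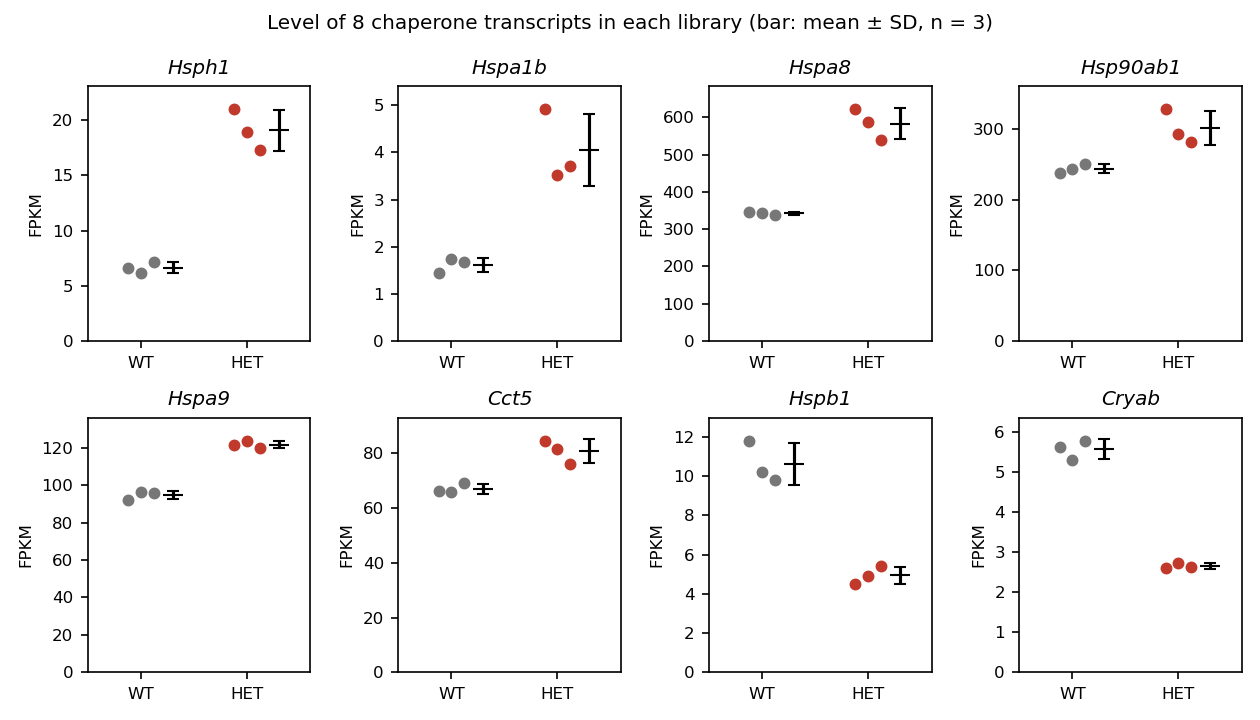
FPKM of 8 members in each WT (grey) and HET (red) library on axes that start at 0, with mean ± SD (n = 3 libraries) beside the points. The HET points lie above all WT points for Hsph1, Hspa1b, Hspa8, Hsp90ab1, Hspa9 and Cct5, and below them for Hspb1 and Cryab.

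Mitochondrial chaperones rose in 3 of 4 cases, by 1.14-fold to 1.28-fold, while 10.7% of all tested genes rose. Hspa9, the mitochondrial Hsp70 that pulls proteins through the import channel, was at 122, 124 and 119.6 FPKM in HET and 92.1, 96.4 and 95.8 in WT (1.28-fold, limma adjusted p = 0.00208). Hspd1 (Hsp60) was at 157, 151 and 139 in HET and 124, 127 and 129 in WT (1.18-fold, adjusted p = 0.0252). The groups did not overlap for either gene, while the call of Hspd1 was lost without HET replicate 2 or any WT replicate (adjusted p between 0.0697 and 0.0928), and so was that of Trap1, which left 1 of the 4 mitochondrial members called. Trap1 is the mitochondrial Hsp90 and had the smallest change of the 3 that rose. Hspe1 (Hsp10), the partner that shares the promoter region printed above with Hspd1, was at 119, 91.8 and 90.8 in HET and 94.5, 94.8 and 87.4 in WT (adjusted p = 0.433). Its groups overlapped, with HET replicate 1 standing above the other 5 libraries. The Hspe1 to Hspd1 ratio was 0.757, 0.608 and 0.652 in HET and 0.761, 0.745 and 0.678 in WT (log2 difference -0.12, exact two-sided permutation p = 0.3), so unequal changes of the partners were not shown.

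CCT is a double ring that folds actin and tubulin, and 7 of its subunits were members. Of these 4 rose (Cct5, Tcp1, Cct7 and Cct8), 3 were not called (Cct2, Cct3 and Cct4) and none fell. Their median log2 fold change was 0.20. Among all tested genes 10.7% rose and 35.7% fell. Cct5 had the largest change, at 84.6, 81.5 and 75.9 FPKM in HET and 66.1, 65.8 and 69.0 in WT (1.20-fold, limma adjusted p = 0.0121), without overlap. The call of Cct5 was lost without WT replicate 1 (adjusted p = 0.0512), and those of Tcp1, Cct7 and Cct8 without HET replicate 2 or any WT replicate, so that 1 CCT subunit stayed called without HET replicate 2, WT replicate 2 or WT replicate 3 and 0 without WT replicate 1. Cct2, the subunit with the highest level in every library, was at 92.6, 83.5 and 83.4 in HET and 77.9, 78.4 and 81.4 in WT (adjusted p = 0.151), and it was called with the other 3 scalings (adjusted p of 0.0184 to 0.0383), as was Cct3 (0.0134 to 0.0296). Cct4 had the lowest level throughout and a ratio of means of 0.989. The highest subunit exceeded the lowest by 1.87 to 1.93 times in HET and by 1.71 to 1.74 times in WT. Of 12 proliferation markers 4 rose and 0 fell beside these changes, their FPKM summing to 185 to 194 in HET libraries and 178 to 182 in WT libraries, and their part in the CCT result was not tested.

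All 4 small heat shock proteins fell. These proteins hold unfolding clients without ATP and are abundant in muscle. Hspb1 (Hsp25 in the mouse) was at 4.51, 4.89 and 5.40 FPKM in HET and 11.8, 10.2 and 9.80 in WT (2.15-fold lower, log2 fold change -0.97, SE 0.09, limma adjusted p = 0.000332). Cryab, alpha-B-crystallin, was at 2.61, 2.75 and 2.64 in HET and 5.64, 5.32 and 5.80 in WT (2.09-fold lower, log2 fold change -0.84, SE 0.06, adjusted p = 0.000144). The highest HET value was below the lowest WT value in each gene. Hspb8, the partner of Bag3, was at 2.30, 2.54 and 2.88 in HET and 4.19, 3.77 and 4.19 in WT (1.58-fold lower, adjusted p = 0.00254). Hspb6 was at 4.72, 3.84 and 5.18 in HET and 6.53, 7.69 and 6.83 in WT (1.53-fold lower, adjusted p = 0.00631). Bag3 and Hspb8, which form a complex with Hsp70, thus went in opposite directions. At the rough depth implied, the 4 small heat shock genes rested on about 58 to 141 fragments per HET library and 126 to 252 per WT library.

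Smooth muscle markers moved with the small heat shock proteins. All 12 fell, by 1.40-fold to 1.98-fold in mean FPKM, beside 1.53-fold to 2.15-fold for the 4 small heat shock proteins. On the log2(FPKM + 1) scale both lists had a median log2 fold change of -0.69. That scale understates changes of weakly expressed genes such as the small heat shock genes, so the shared median does not show equal falls. Marker FPKM summed to between 290.02 and 347 in HET libraries and between 508 and 552 in WT libraries, while the small heat shock proteins summed to 14.0 to 16.1 and 26.6 to 28.2. None of the 12 markers was at 0 in any library. The part of the muscle markers in this result was not tested. Over all tested genes 35.7% fell.

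**Figure D4:**
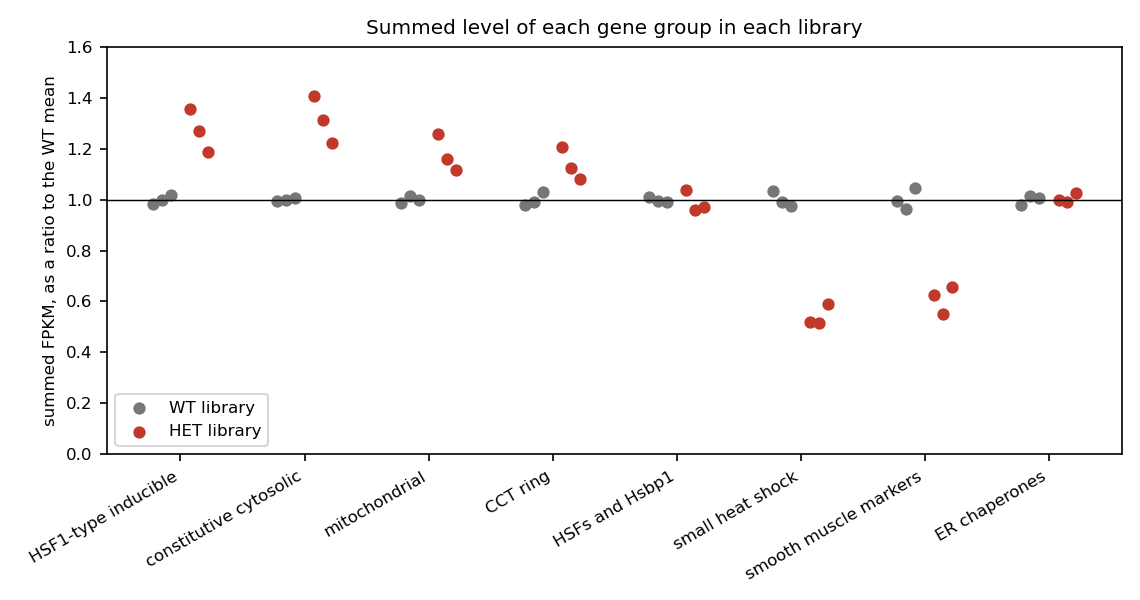
Summed FPKM of each role group, of 12 smooth muscle markers and of 12 endoplasmic reticulum chaperones in every library, divided by the group's WT mean (line at 1). HET libraries (red) lie above WT (grey) for the sums of the inducible, constitutive, mitochondrial and CCT groups. They lie below for the small heat shock proteins and smooth muscle markers. They overlap WT for the heat shock factors with Hsbp1 and for the endoplasmic reticulum chaperones. Sums follow the most abundant genes: Hspa8 and Hsp90ab1 lead the constitutive sum, in which 12 of 15 members were not called. Hsbp1 makes up most of the sum it shares with the heat shock factors.

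Transcripts of the regulators were not called. Hsf1, the factor that drives the heat shock response, was at 8.71, 6.79 and 6.78 FPKM in HET and 7.68, 8.15 and 8.26 in WT (log2 fold change -0.11, 95% confidence interval -0.34 to 0.12, limma adjusted p = 0.388). HET replicate 1 lay above the other 5 libraries and without it Hsf1 was called lower (log2 fold change -0.21, limma adjusted p = 0.0224), while with quantile normalization the value was 0.03. Hsf2, a second heat shock factor, had a ratio of means of 0.749 and also was not called. Its log2 fold change was -0.21, turned to 0.19 with quantile normalization (limma adjusted p = 0.162), and was called lower without HET replicate 3. Hsbp1, a small protein that binds Hsf1, was at 53.0, 50.3 and 50.5 in HET and 51.9, 50.8 and 50.3 in WT (adjusted p = 0.928). Activity of Hsf1 is set largely on the protein and was not measured here.

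Heat shock elements occurred on both sides of the comparison. Of the 19 members with a 2-unit element, 8 rose, 4 fell, 6 were not called and 1 was not tested. Of the 20 members with a window but no such element, 6 rose, 1 fell and 13 were not called. The 8 members without a window were not searched, among them Hspa8, Hsp90aa1, Hsp90ab1 and Hspa9, which rose, and Cryab, which fell. Among all tested genes 10.7% rose and 35.7% fell. The 4 that held an element and fell were Dnaja4 and the small heat shock genes Hspb1, Hspb6 and Hspb8. Hspb1 had a pair of 2-unit matches in the stretch printed above, and Hspa1b, which rose, had a single one. Only exact letters were searched, so a member without a match may still hold an inexact element. The number of matches does not rank the promoters, and a part of the elements in these changes was not tested.

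Of 44 tested genes, among them prefoldin subunits, further J-domain and Bag proteins, Hsp90 co-chaperones and mitochondrial proteases, 6 rose, 12 fell and 26 were not called, with a median log2 fold change of -0.05. These counts lie near the shares over all tested genes, 10.7% higher and 35.7% lower. By log2 fold change the 4 largest rises were in Fkbp5, an Hsp90 immunophilin that glucocorticoids induce (35.6, 36.2 and 36.0 FPKM in HET, 3.13, 3.43 and 3.41 in WT), in the prefoldin subunit Pfdn2 (log2 fold change 0.32), in the ribosome-associated Dnajc2 (0.31) and in Dnajc7 (0.26). By the same measure the 4 largest falls were in Serpinh1, the collagen chaperone Hsp47 (log2 fold change -1.96), in Hspb11 (-0.68), in the myosin chaperone Unc45a (-0.44) and in the J-domain gene Dnajb5 (-0.41, not called with quantile normalization). Of 12 chaperones of the endoplasmic reticulum 2 rose and 4 fell, also near those shares; the median log2 fold change was 0.01. Hspa5 (BiP) and its exchange factor Hyou1 rose, by 1.24-fold and 1.20-fold (limma adjusted p = 0.00785 and 0.00601). Canx, Dnajc3, Hsp90b1 and Pdia6 fell, by 1.14-fold to 1.31-fold, and the last 3 lost their calls with a common sum and with median-ratio scaling. The 10 immediate-early genes, which respond to acute stress soon after a stimulus, showed 7 falls, 0 rises and 3 not called, their FPKM summing to 161 to 208 in HET libraries and 218 to 233 in WT libraries.

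**Figure D5:**
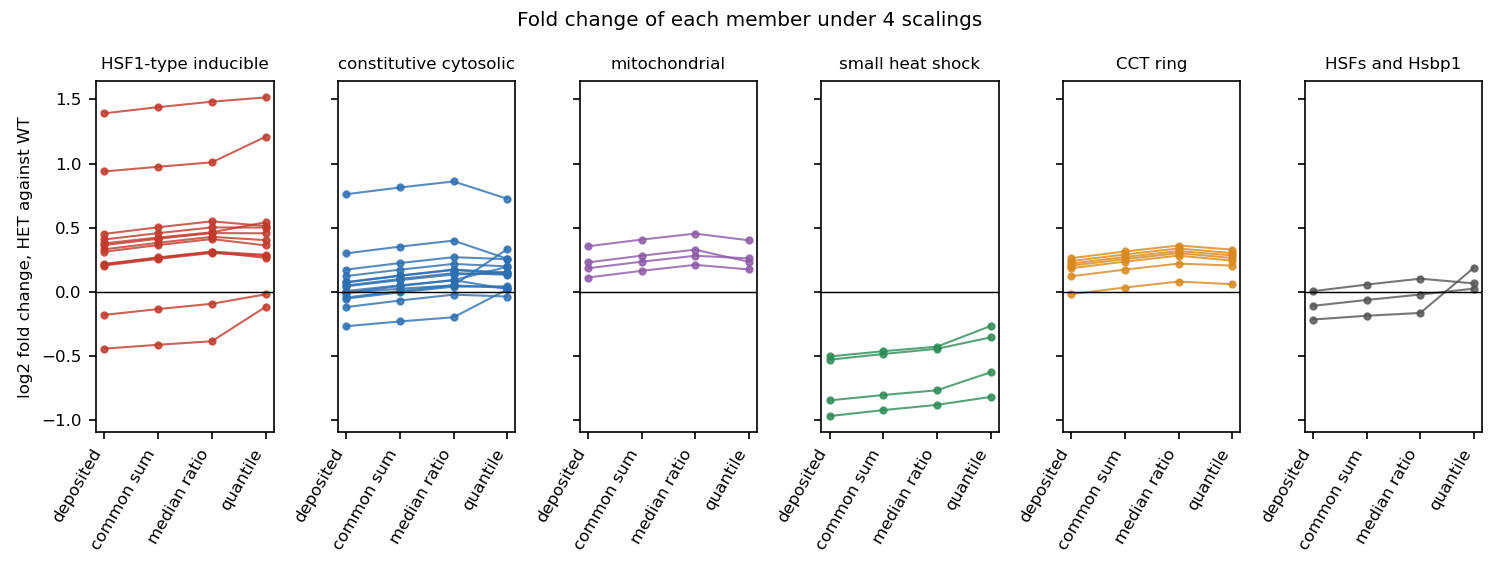
Lines join the log2 fold change of each tested member as deposited and after scaling to a common sum, median-ratio scaling and quantile normalization, in 1 panel per role group. The 18 members called higher stay above 0 and the 4 small heat shock genes stay below 0 throughout, while Hspa4l and Hsf1 are among those that cross 0 with quantile normalization.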

How the data were processed

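Polyadenylated RNA had been sequenced from 6 libraries; per the labels' protocols, RNA was taken on oligo(dT) beads and made into libraries with a SMARTER mRNA kit. The authors deposited FPKM in 1 table, 1 column per library, and the submitters' processing notes name GRCm39; no source used here names the aligner, the counter or the annotation. FPKM divides by each library's total, so abundant genes that change shift the others.

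The 11870 of 25416 rows that reached 1 FPKM in 3 or more libraries went into limma 3.58.1 (R 4.3.3) as log2(FPKM + 1), with a trended eBayes fit ( genotype as the only term, Benjamini-Hochberg over all rows tested); the script was tested on simulated data. Ratios within libraries were compared by exact two-sided permutation. Fold changes in the text are ratios of mean FPKM. Depth was read roughly from the pile-up of FPKM times the longest GENCODE M21 transcript length at 1 fragment. Promoter windows came from RefSeq (GRCm38.p6), used with GENCODE M21 for names and sequences only. Other computing used SciPy 1.17.1, pandas 2.3.3 and numpy 2.4.6 under Python 3.11.15, with plots from matplotlib 3.10.9.

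Members, role groups and lists were chosen with earlier results of these data known, so their counts are descriptions. Per-library values are given for preset pairs, for the 12 largest called changes in each direction and for the most abundant member of each role; other members are given by range. Alternatives were a pseudocount of 0.1, no filter, a minimum mean FPKM of 5, a common sum, median-ratio scaling, quantile normalization, a replicate block, eBayes without trend and leaving out each library.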

Additional observations from a re-analysis of the deposited data

How the results depend on the processing

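As deposited, 1269 genes were higher and 4235 lower (76.9% lower among the calls). With a common sum per library the counts were 1736 and 3509 (66.9%), with median-ratio scaling 2334 and 3267 (58.3%), and with quantile normalization 2929 and 2153 (42.4%), which moved the median of all genes from -0.12 to 0.04. Requiring a mean FPKM of at least 5 left 1853 genes lower and 2 members lower, since 39 members remained. Leaving out 1 library gave 754 to 1610 genes higher and 3150 to 4409 lower, and 10 to 20 members higher and 6 to 8 lower. The lowest counts of members higher, 10 and 11, came without WT replicate 1 and WT replicate 2. All 18 members called higher were called under each of the 3 scalings and 10 of them in every fit that left out a library; of the 6 called lower these numbers were 4 and 6. Leaving out a library moved the log2 ratio of Hsp90aa1 to Hsp90ab1, of Hspa1a plus Hspa1b to Hspa8 and of Hspe1 to Hspd1 within the ranges -0.13 to -0.03, 0.24 to 0.42 and -0.21 to -0.05. Among the genes with values in each library, those that changed sign were Hsbp1 (0.01, and -0.0177 to 0.0202 as each library was left out, below 0 without HET replicate 1 or WT replicate 3), Hspe1 (0.11, and -0.0136 to 0.1803, below 0 without HET replicate 1), Hsf1 (-0.11, then 0.0266 with quantile normalization) and Hspa4l (-0.27, then 0.0203 with quantile normalization); the cause was not tested. Across the scalings Hsf2 (-0.21 to 0.19), Hspa2 (-0.01 to 0.33, called with quantile normalization, adjusted p = 0.0162), Cdc37, St13, Cct4 and Bag1 changed sign as well. With the replicate number as a block, 14 members were higher and 6 lower, and the calls of Hsp90aa1 (adjusted p = 0.0541), Hspd1 (0.0508), Trap1 and Cct8 were lost. Same-numbered libraries deviated from their group means with correlations of -0.03, 0.13 and 0.32. Libraries with different numbers gave -0.34 to 0.25. With 3 libraries per group these values cannot show whether same-numbered libraries were handled together. At the rough depth implied, weakly expressed members such as Hspa1a and Hsf2 rested on few fragments (31 to 80 for Hspa1a), which limits what could be called. Members called lower also rested on few fragments in HET libraries. These were 58 to 67 for Cryab, 63 to 75 for Dnaja4, 81 to 98 for Hspb1 and 84 to 105 for Hspb8. Hspb6 had 115 to 141 and Hspa4l 366 to 436.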
